A study of Mus musculus with 8 samples.

Results

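The genes described here are 35 genes of the cell cycle and of DNA replication, measured in murine bone marrow-derived macrophages (BMDM). They were listed by name, with earlier results of these data known, and measured values entered only the choice of probe set. Of the 35, 15 act in S phase, 16 in mitosis and 4 at the passage through G1. A probe set annotated to no other gene was found for 34 of them, and each gene was read on the brightest such probe set over the 8 arrays. *Ccnb1*, which encodes cyclin B1, had none and has no value here, which leaves 15 mitosis genes. The 34 genes stand among 18183 genes and 45014 probe sets that were tested.

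Macrophages were differentiated from frozen C57Bl/6 marrow in medium conditioned by L929 cells. The marrow came from 2 wild-type (WT) and 2 miR-155-/- donors, which lack the microRNA miR-155. Every group received LPS (100 ng/ml) for 24 h, and 1 group of each genotype also received IL-10 (20 ng/ml), added shortly before LPS. This gave 4 groups of 2 arrays, named WT(LPS), WT(LPS + IL-10), miR-155-/-(LPS) and miR-155-/-(LPS + IL-10). No array of unstimulated cells was analysed here. The labels give the WT animals as female and the miR-155-/- animals as male, so genotype and sex cannot be told apart. Values are log2 intensities.

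The cell cycle is driven by cyclins and their kinases. In G1, D-type cyclins release E2F transcription factors from inhibition, and E2F then switches on the genes that license origins and make deoxynucleotides. The MCM helicase opens DNA in S phase, and a later set of kinases, motors and checkpoint proteins divides the chromosomes in mitosis. BMDM divide in response to macrophage colony-stimulating factor, which L929 medium supplies, and LPS is known to halt this division. The cyclin-dependent kinase inhibitor encoded by *Cdkn1a* restrains the step from G1 to S phase.

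Macrophage markers were high on every array, with a median log2 level of 12.46 to 12.68 over 10 genes. *Mir155hg*, the host transcript of miR-155, read 2.73 and 4.02 in WT(LPS) and 1.70 to 2.31 on the other 6 arrays, and these low values do not check the genotype labels. Fibroblast and stromal markers stood apart in WT donor 1, where the summed linear level of 12 genes was 13310 with LPS and 13542 with LPS + IL-10. On the other 6 arrays this sum was 149.6 to 669. Myeloid progenitor and lymphoid markers were low, with all 9 and all 7 measured genes at a mean log2 level under 4.

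IL-10 raised cell cycle genes in miR-155-/- BMDM. Of the 34 genes, 12 rose and 1 fell at an adjusted p under 0.05 in limma, while 21 did not pass the test. Over all 45014 probe sets, 1.26% rose and 1.42% fell by the same rule, and 1.57% of the 18183 genes rose on their brightest probe set. The risers were 5 of 15 S phase genes and 7 of 15 mitosis genes, and the gene that fell was *Cdkn1a*. The median log2 difference was 0.65 over the S phase genes and 0.96 over the mitosis genes, against 0.01 over all probe sets. In bulk RNA, more cells in cycle and more of these transcripts per cell cannot be told apart.

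Most of the 34 genes moved in the same direction with IL-10 in both miR-155-/- donors. *Cdc20* did not, at 0.81 in donor 1 and −0.37 in donor 2. With IL-10, 29 of 34 genes were higher in both miR-155-/- donors, and 26 had both LPS + IL-10 arrays above both LPS arrays. The share of all probe sets with that order was 24.5%, and no share was taken for the count of 29. The median difference over the 34 genes was 0.82 in miR-155-/- donor 1 and 0.51 in donor 2. In 29 of 34 genes the difference was larger in donor 1. All 15 mitosis genes had their highest value of the 8 arrays in miR-155-/-(LPS + IL-10) replicate 1, as did 11 of 15 S phase genes.

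**Figure D1:**
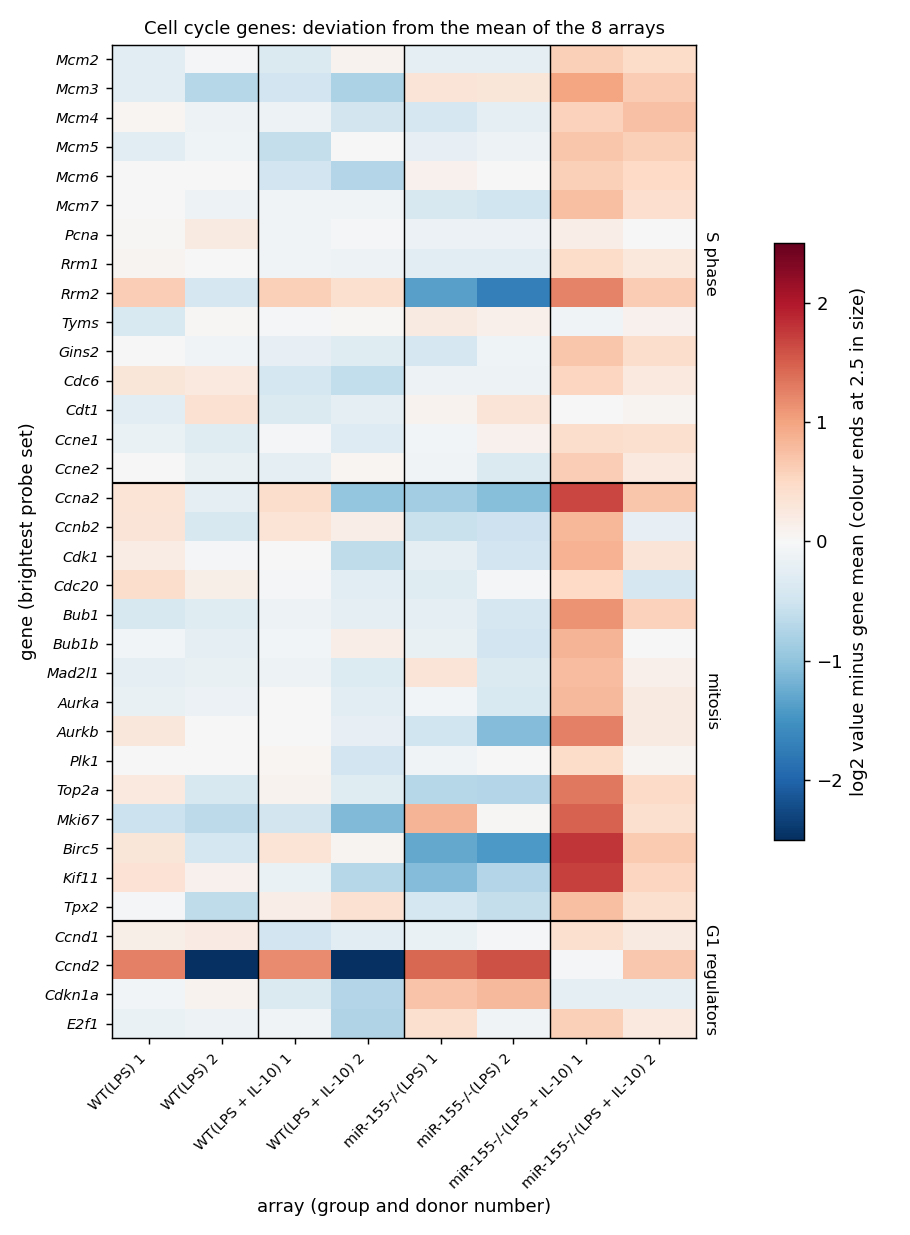
Heat map of the 34 genes (rows, from S phase through mitosis to G1 regulators) on the 8 arrays (columns, by group and donor number), with colour giving the log2 value minus the mean of that gene over the arrays. The colour scale ends at 2.5, which *Ccnd2* passes in WT donor 2. The miR-155-/-(LPS + IL-10) columns are red for most rows, more so in donor 1, and *Cdkn1a* is highest in miR-155-/-(LPS).

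Among the S phase genes, subunits of the MCM helicase and of ribonucleotide reductase rose. *Rrm2*, the regulatory subunit of ribonucleotide reductase, which makes deoxynucleotides, read 7.94 and 7.58 in miR-155-/-(LPS) against 10.53 and 9.93 in the miR-155-/-(LPS + IL-10) arrays. In WT it read 9.90 and 8.87 with LPS and 9.90 and 9.68 with LPS + IL-10. Both miR-155-/-(LPS) arrays were thus the lowest of the 8, and both miR-155-/-(LPS + IL-10) arrays lay above every WT array. It rose by 2.47 ± 0.30 (SE, adjusted p = 0.0106). *Rrm1*, the catalytic subunit, read 7.37 and 7.36 in miR-155-/-(LPS) against 8.12 and 7.91 in the miR-155-/-(LPS + IL-10) arrays, against 7.52 to 7.73 in WT. It rose by 0.65 ± 0.11 (SE, adjusted p = 0.0373).

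*Mcm7* read 7.76 and 7.67 in miR-155-/-(LPS) against 8.91 and 8.59 in the miR-155-/-(LPS + IL-10) arrays. The 4 WT arrays lay between, at 8.18 and 8.04 with LPS and 8.08 and 8.08 with LPS + IL-10. *Mcm7* rose by 1.03 ± 0.13 (SE, adjusted p = 0.0118). *Mcm4*, at 8.60 and 8.80 in miR-155-/-(LPS) against 9.60 and 9.75 in the miR-155-/-(LPS + IL-10) arrays, rose by 0.98 ± 0.14 (SE, adjusted p = 0.0193). Its WT values were 9.08 and 8.90 with LPS and 8.90 and 8.56 with LPS + IL-10. *Gins2*, a subunit of the GINS complex that joins the MCM ring at the fork, rose by 0.82 ± 0.15 (SE, adjusted p = 0.0423). It read 6.62 and 6.94 in miR-155-/-(LPS) against 7.73 and 7.47 in the miR-155-/-(LPS + IL-10) arrays, with 7.03, 6.95, 6.84 and 6.74 on the WT arrays in the same order.

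The other subunits of the MCM ring did not pass the test, although for each of them both miR-155-/-(LPS + IL-10) arrays lay above both miR-155-/-(LPS) arrays. *Mcm2* read 7.20 and 7.19 in miR-155-/-(LPS) against 8.03 and 7.89 in the miR-155-/-(LPS + IL-10) arrays, a log2 difference of 0.76 (adjusted p = 0.0531), against 7.07 to 7.53 in WT. *Mcm6* read 8.74 and 8.64, then 9.22 and 9.14 with IL-10. *Mcm3* read 8.98 and 8.96, then 9.65 and 9.30. Both genes had lower values in WT(LPS + IL-10), at 8.15 and 7.91 for *Mcm6* and 8.19 and 7.88 for *Mcm3*. In WT(LPS), *Mcm6* read 8.64 and 8.62 and *Mcm3* 8.40 and 7.95. *Mcm5* ran from 6.86 to 8.15 over the arrays, with a difference of 0.81 (adjusted p = 0.0640).

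Among the remaining S phase genes, the origin-licensing factor *Cdc6* read 5.97 and 5.97 in miR-155-/-(LPS) against 6.64 and 6.36 in the miR-155-/-(LPS + IL-10) arrays. In WT it went the other way, from 6.40 and 6.36 with LPS to 5.66 and 5.49 with LPS + IL-10. Neither of these passed the test (adjusted p = 0.0898 in miR-155-/- and 0.126 in WT). *Pcna*, the sliding clamp of DNA polymerases, varied by 0.38 over the 8 arrays, with WT values of 12.11 and 12.32 under LPS and 12.01 and 12.03 under LPS + IL-10. The miR-155-/- values were 11.94 and 11.95 under LPS and 12.25 and 12.10 under LPS + IL-10. The cyclin E genes *Ccne1* and *Ccne2* differed by 0.40 and 0.66 with IL-10 in miR-155-/- cells (adjusted p = 0.170 and 0.0988). The remaining S phase genes had small negative differences there, at −0.18 for *Cdt1*, the partner of *Cdc6* in licensing, and −0.17 for *Tyms*, thymidylate synthase. The *Tyms* probe set read 2.99 to 3.61, below the median of every array, and says little about that gene.

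The mitosis genes had the higher median difference. *Birc5*, which encodes survivin of the chromosomal passenger complex, read 5.62 and 5.47 in miR-155-/-(LPS) against 8.69 and 7.57 in the miR-155-/-(LPS + IL-10) arrays. Its WT values were 7.22 and 6.47 with LPS and 7.26 and 6.97 with LPS + IL-10, so that miR-155-/- arrays lay below WT with LPS and above it with LPS + IL-10. It rose by 2.58 ± 0.33 (SE, adjusted p = 0.0130). *Aurkb*, the kinase of the same complex, read 4.63 and 4.06 in miR-155-/-(LPS) against 6.39 and 5.36 in the miR-155-/-(LPS + IL-10) arrays. It rose by 1.53 ± 0.28 (SE, adjusted p = 0.0419), while its WT values were 5.42 and 5.15 with LPS and 5.14 and 4.92 with LPS + IL-10.

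*Ccna2*, cyclin A2, which acts from S phase into mitosis, read 4.86 and 4.67 in miR-155-/-(LPS) against 7.41 and 6.43 in the miR-155-/-(LPS + IL-10) arrays. It rose by 2.15 ± 0.42 (SE, adjusted p = 0.0489). The WT arrays were spread by donor, with 6.09 and 5.49 with LPS and 6.19 and 4.77 with LPS + IL-10. *Kif11*, a spindle motor, read 2.70 and 3.05 in miR-155-/-(LPS) against 5.48 and 4.32 in the miR-155-/-(LPS + IL-10) arrays, and rose by 2.03 ± 0.35 (SE, adjusted p = 0.0349). The lower values of *Kif11* lie under the array medians of 3.88 to 3.97, so this difference starts from a level near background. In WT it read 4.15 and 3.88 with LPS and 3.61 and 3.08 with LPS + IL-10.

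*Top2a*, the topoisomerase that untangles sister chromatids, read 5.50 and 5.49 in miR-155-/-(LPS) against 7.53 and 6.68 in the miR-155-/-(LPS + IL-10) arrays. It rose by 1.61 ± 0.28 (SE, adjusted p = 0.0340). Its WT values overlapped between treatments, at 6.45 and 5.81 with LPS and 6.29 and 5.91 with LPS + IL-10. *Bub1*, a spindle checkpoint kinase, read 5.70 and 5.50 in miR-155-/-(LPS) against 7.04 and 6.49 in the miR-155-/-(LPS + IL-10) arrays, and rose by 1.17 ± 0.17 (SE, adjusted p = 0.0190). It was nearly level in WT, from 5.52 and 5.61 to 5.80 and 5.68. *Tpx2*, a spindle assembly factor, rose by 1.09 ± 0.21 (SE, adjusted p = 0.0441), from 6.29 and 6.12 to 7.48 and 7.11. *Tpx2* was also higher with IL-10 in both WT donors, from 6.66 and 6.09 to 6.89 and 7.10, at a difference of 0.62 (adjusted p = 0.451).

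*Mki67*, the gene of the proliferation antigen Ki-67, had the most positive difference of the 15 mitosis genes in miR-155-/-(LPS) against WT(LPS). This was 1.04 (adjusted p = 0.295), and 3 of the 15 were positive. *Mki67* read 7.81 and 7.00 in miR-155-/-(LPS), then 8.44 and 7.36 with IL-10. That difference of 0.49 (adjusted p = 0.527) was smaller than the gap between the donors. All 4 miR-155-/- arrays lay above the WT arrays, which read 6.44 and 6.30 with LPS and 6.50 and 5.86 with LPS + IL-10. *Cdk1*, the mitotic kinase, read 7.14 and 6.89 in miR-155-/-(LPS) against 8.26 and 7.69 in the miR-155-/-(LPS + IL-10) arrays, a difference of 0.96 (adjusted p = 0.0817). Its WT values were 7.56 and 7.35 with LPS and 7.39 and 6.75 with LPS + IL-10. The other 6 mitosis genes did not pass the test and differed by 0.22 for *Cdc20* to 0.85 for *Ccnb2*. Between these lay *Plk1* at 0.31, *Mad2l1* at 0.48, *Aurka* at 0.74 and *Bub1b* at 0.76. *Plk1*, *Ccnb2*, *Cdc20*, *Bub1b* and *Aurka* had 8-array means under 6. So had *Ccna2*, *Bub1*, *Aurkb* and *Kif11*, which passed the test.

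**Figure D2:**
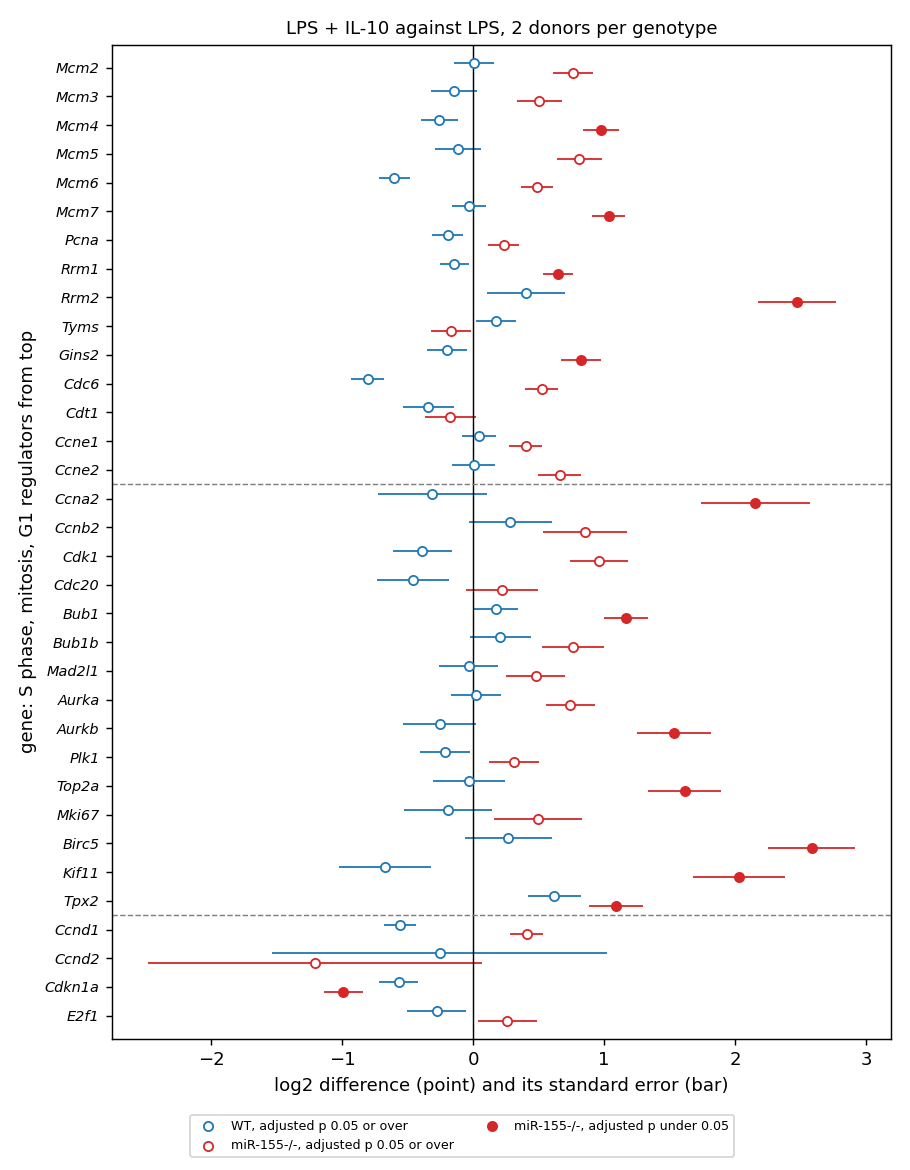
Log2 difference of LPS + IL-10 against LPS for the 34 genes in WT (blue) and miR-155-/- (red), each from 2 donors, with bars of 1 standard error from limma and filled points for an adjusted p under 0.05. All 13 filled points are red, 12 of them to the right of 0, and the blue points lie on both sides of 0.

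The promoters of these genes were compared for letters known from cell cycle genes. A RefSeq promoter entry (build GRCm38.p6) was held for 27 of the 35 genes. *Mcm4*, *Gins2*, *Ccne2*, *Ccna2*, *Aurkb*, *Tpx2*, *Ccnd1* and *Ccnd2* had none in the table used. In the 200 bases before the transcription start, on both strands, 3 motifs were searched. These were the E2F motif (TTTCCCGC, TTTCGCGC, TTTGCCGC or TTTGGCGC), the cell cycle genes homology region or CHR (TTTGAA or TTCGAA) and the CCAAT box (CCAAT). Matches of the E2F motif can overlap one another. A match is a description of letters and not a shown binding site.

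The promoters of 4 genes that rose in miR-155-/-(LPS + IL-10) are printed to show how these letters are placed, with matches of any of the 3 motifs in capitals. They lie at chr11:99024190-99024389 on the minus strand for *Top2a*, chr19:37376182-37376381 on the plus strand for *Kif11*, chr5:138171884-138172083 on the minus strand for the upstream of both *Mcm7* entries, and chr12:24708054-24708253 on the plus strand for *Rrm2*. Each runs 5′ to 3′ and ends at the base before the start.
Top2a: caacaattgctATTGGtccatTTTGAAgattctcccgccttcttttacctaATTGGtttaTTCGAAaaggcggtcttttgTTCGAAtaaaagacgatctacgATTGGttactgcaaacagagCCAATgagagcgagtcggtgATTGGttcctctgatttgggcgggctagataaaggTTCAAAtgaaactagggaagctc
Kif11: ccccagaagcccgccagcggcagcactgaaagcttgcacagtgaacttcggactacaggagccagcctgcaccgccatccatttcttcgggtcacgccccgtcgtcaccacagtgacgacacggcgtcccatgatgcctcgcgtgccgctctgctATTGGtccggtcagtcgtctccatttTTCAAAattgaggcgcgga
Mcm7: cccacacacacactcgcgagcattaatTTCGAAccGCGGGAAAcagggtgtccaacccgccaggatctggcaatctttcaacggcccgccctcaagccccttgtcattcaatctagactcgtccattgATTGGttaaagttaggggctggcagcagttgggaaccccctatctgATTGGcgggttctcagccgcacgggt
Rrm2: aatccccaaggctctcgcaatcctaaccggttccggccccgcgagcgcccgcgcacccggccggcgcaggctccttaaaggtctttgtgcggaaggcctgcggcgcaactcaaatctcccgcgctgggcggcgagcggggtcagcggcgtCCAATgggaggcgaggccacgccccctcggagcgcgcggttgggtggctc

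*Top2a* held 4 CHR and 5 CCAAT matches, *Kif11* 1 of each, *Mcm7* 1 E2F, 1 CHR and 2 CCAAT matches, and *Rrm2* 1 CCAAT match. The other *Mcm7* entry held 1 CCAAT match and no E2F or CHR match. In the counts that follow, a gene holds a motif if any of its entries does. Of 13 mitosis genes with an entry, 7 held a CHR (53.8%) and 11 a CCAAT box (84.6%). Of 27025 genes in the table, 15.4% held a CHR and 32.7% a CCAAT box. Of 12 S phase genes with an entry, 4 held an E2F match (33.3%) and 8 a CCAAT box (66.7%), where 1.83% of all genes held an E2F match. These 4 were *Cdc6*, *Mcm5*, *Mcm6* and *Mcm7*, of which only *Mcm7* passed the test for IL-10 in miR-155-/- cells. Among the mitosis genes with a CHR, *Top2a* and *Kif11* passed it, and *Bub1b*, *Ccnb2*, *Cdc20*, *Cdk1* and *Mki67* did not. *Bub1* and *Birc5* passed it without a CHR. A link of these letters to the rise was not tested. The promoters of *Birc5*, *Cdkn1a* and *E2f1* held no match to any of the 3 motifs in this window.

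The G1 regulators did not share a direction for IL-10 in miR-155-/- cells, while in WT all 4 had lower values with IL-10 and none passed the test. *Cdkn1a*, the inhibitor of cyclin-dependent kinases, read 11.99 and 12.09 in miR-155-/-(LPS) against 11.05 and 11.05 in the miR-155-/-(LPS + IL-10) arrays. It fell by 0.99 ± 0.15 (SE, adjusted p = 0.0212). In WT it read 11.21 and 11.37 with LPS and 10.91 and 10.53 with LPS + IL-10, a difference of −0.57 (adjusted p = 0.317). Both miR-155-/-(LPS) arrays were the highest of the 8 for this gene. A second *Cdkn1a* probe set fell in miR-155-/- cells as well (−1.48, adjusted p = 0.0130).

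*Ccnd1*, cyclin D1, which opens G1, went opposite ways in the genotypes. In WT it read 10.83 and 10.90 under LPS, then 10.21 and 10.41 under LPS + IL-10. In miR-155-/- cells it read 10.53 and 10.65 under LPS, then 11.09 and 10.91 under LPS + IL-10. The differences were −0.56 in WT (adjusted p = 0.249) and 0.41 in miR-155-/- cells (adjusted p = 0.158). *E2f1*, the transcription factor of S phase genes, had WT values of 7.80 and 7.85 under LPS and 7.88 and 7.22 under LPS + IL-10. Its miR-155-/- values were 8.36 and 7.88 under LPS and 8.56 and 8.21 under LPS + IL-10. Its difference with IL-10 in miR-155-/- cells was 0.26 (adjusted p = 0.637).

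*Ccnd2*, cyclin D2, followed the donor more than the group. It read 5.20 with LPS and 4.77 with LPS + IL-10 in WT donor 2, but 9.30 and 9.23 in WT donor 1, the donor with high stromal markers. The miR-155-/- arrays read 9.47 and 9.63 with LPS and 7.99 and 8.71 with LPS + IL-10. Its standard error in limma was 1.28 for the effect of IL-10, and no comparison of *Ccnd2* passed with the donor as a random block. With the donor as a fixed block, *Ccnd2* was called lower with IL-10 in miR-155-/- cells (−1.21 ± 0.19, SE, adjusted p = 0.0232). The part of the stromal cells in its level was not tested.

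**Figure D3:**
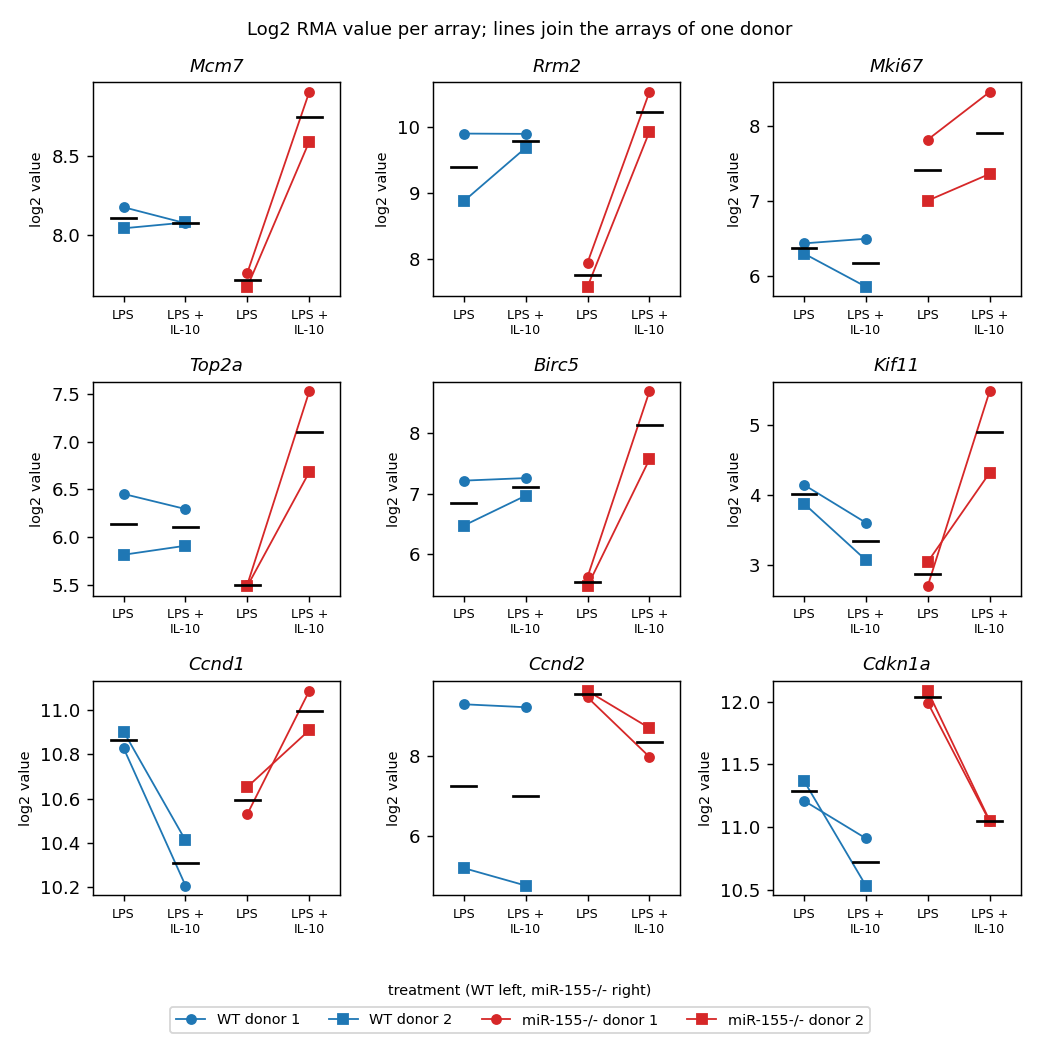
Log2 value of 9 of the genes on each array, with the arrays of one donor joined by a line (circles donor 1, squares donor 2, blue WT, red miR-155-/-) and black bars at group means; the vertical axes differ between panels and do not start at 0. *Mcm7*, *Rrm2*, *Top2a*, *Birc5* and *Kif11* climb steeply from LPS to LPS + IL-10 in both miR-155-/- donors, *Cdkn1a* drops, and *Ccnd2* is near 5 in WT donor 2 alone.

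In WT BMDM, no gene of the 34 passed the test for IL-10 in limma, where 0.0311% of all probe sets did in either direction. The median log2 difference was −0.14 over the S phase genes and −0.03 over the mitosis genes. At an unadjusted p under 0.05, 4 genes were lower (*Mcm6*, *Cdc6*, *Ccnd1* and *Cdkn1a*) and 1 was higher (*Tpx2*), beside 4.58% of all probe sets lower by this rule. The share of all probe sets higher by it was not taken. By arrays, 3 genes had both WT(LPS + IL-10) values above both WT(LPS) values, and 16.1% of all probe sets had that order. The medians of the donors were −0.10 in WT donor 1 and −0.18 in WT donor 2. A filter for 8-array means of 6 or more called *Mcm6*, *Cdc6* and *Ccnd1* lower. The *Cdc6* mean, 6.11, is over this limit only with the miR-155-/-(LPS + IL-10) arrays in it. No share of all probe sets was taken with this filter, here or in the comparisons below.

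The effect of IL-10 was compared between the genotypes by the interaction term in limma. No gene of the 34 passed, where 0.0333% of all probe sets did. At an unadjusted p under 0.05, 21 genes had a more positive effect in miR-155-/- cells (12 S phase, 8 mitosis and 1 G1 gene) and none a more negative one, beside 5.43% of all probe sets with a more positive effect. The term was 2.70 ± 0.49 (SE) for *Kif11* (adjusted p = 0.236), 2.07 ± 0.42 (SE) for *Rrm2* (adjusted p = 0.276) and 1.33 ± 0.18 (SE) for *Cdc6* (adjusted p = 0.130). By donors, 11 genes were lower with IL-10 in both WT donors and higher in both miR-155-/- donors, beside 7.57% of all probe sets, and none showed the opposite. With the same filter for means of 6 or more, *Mcm4*, *Mcm6*, *Mcm7*, *Cdc6* and *Ccnd1* passed, where *Cdc6* meets the filter only through its miR-155-/-(LPS + IL-10) values. With an intensity trend and robust hyperparameters, *Mcm4*, *Mcm6*, *Cdc6* and *Ccnd1* did. The share of all probe sets that passed in these settings was not taken, so the 0.0333% above is no background for them.

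With LPS alone, 12 of 15 mitosis genes had lower values in miR-155-/- than in WT BMDM. No gene of the 34 passed the test in limma, beside 1.46% of all probe sets in either direction. The median log2 difference of miR-155-/-(LPS) against WT(LPS) was −0.44 over the mitosis genes and −0.13 over the S phase genes, against 0.02 over all probe sets. The mitosis median was −0.15 without WT(LPS) replicate 1, an array with high stromal markers, and −0.22 without miR-155-/-(LPS) replicate 1. At an unadjusted p under 0.05, 7 genes were lower, beside 5.99% of all probe sets. By the same rule 3 were higher, for which no share of all probe sets was taken. The lower ones were *Mcm7*, *Rrm1*, *Rrm2*, *Cdc6*, *Aurkb*, *Birc5* and *Kif11*, with *Rrm2* at −1.63 (adjusted p = 0.0815), *Birc5* at −1.30 (adjusted p = 0.187) and *Kif11* at −1.14 (adjusted p = 0.267). The higher ones were *Mcm3* at 0.79, *Mki67* at 1.04 and *Cdkn1a* at 0.75 (adjusted p = 0.131, 0.295 and 0.0988). With the filter for means of 6 or more, *Rrm2* was called lower and *Mcm3* and *Cdkn1a* higher.

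With LPS + IL-10, all 34 genes had higher values in miR-155-/- than in WT BMDM, yet none passed the test in limma, beside 0.0711% of all probe sets in either direction. The median difference was 0.66 over the S phase genes and 0.84 over the mitosis genes, against 0.03 over all probe sets. Without miR-155-/-(LPS + IL-10) replicate 1, the mitosis median was 0.47 and 31 of the 34 genes had higher values. At an unadjusted p under 0.05, 23 genes were higher (11 S phase, 10 mitosis and 2 G1 genes), beside 5.59% of all probe sets. *Mki67* differed by 1.72 (adjusted p = 0.239), *Kif11* by 1.56 (adjusted p = 0.313), *Mcm3* by 1.44 (adjusted p = 0.0870) and *Mcm6* by 1.15 (adjusted p = 0.0614). *Mcm3*, *Mcm4*, *Mcm6* and *Cdc6* passed with the filter for means of 6 or more, which *Cdc6* meets only through the miR-155-/-(LPS + IL-10) arrays. The 2 genotype comparisons rest on different arrays of the same 4 donors, so they are not independent. Each also shares its arrays with the IL-10 comparisons above.

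**Figure D4:**
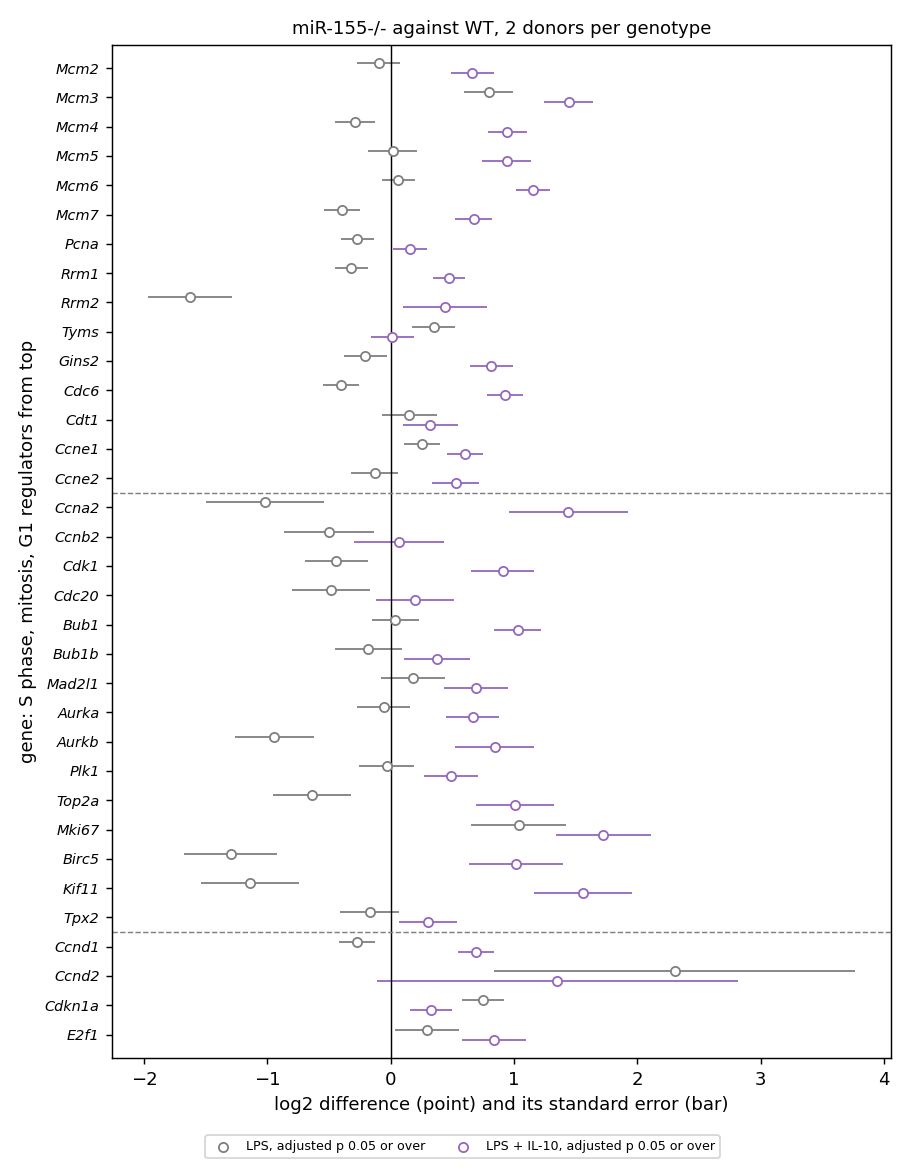
Log2 difference of miR-155-/- against WT for the 34 genes with LPS (grey) and with LPS + IL-10 (purple), with bars of 1 standard error from limma and open points for an adjusted p of 0.05 or over. All purple points lie to the right of 0, and 22 of the 34 grey points lie to the left of it.

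Averaged over the genotypes, IL-10 raised *Mcm7*, *Rrm2*, *Bub1*, *Birc5* and *Tpx2* and lowered *Cdkn1a*, at log2 differences of 0.50, 1.44, 0.67, 1.43, 0.86 and −0.78 (adjusted p = 0.0402, 0.0198, 0.0372, 0.0288, 0.0320 and 0.0144). Over all probe sets 1.16% rose and 1.42% fell. *Bub1*, *Birc5* and *Tpx2* were higher and *Cdkn1a* lower with IL-10 in all 4 donors, while *Mcm7* and *Rrm2* were lower with IL-10 in WT donor 1. Without 1 array, 0 to 3 of the 6 calls were made, and with all probe sets of a gene averaged *Bub1* and *Tpx2* were not among them.

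The calls for IL-10 in miR-155-/- cells depended on single arrays. Of the 13 calls, 0 were left without miR-155-/-(LPS) replicate 1, without its replicate 2 or without miR-155-/-(LPS + IL-10) replicate 1, and 6 were made without miR-155-/-(LPS + IL-10) replicate 2. Leaving out 1 of the WT arrays gave 7 of the 13, and with either WT(LPS + IL-10) array out *Mcm2* and *Mcm5* were called as well. With an array left out its group has 1 array, which is assumed to vary like the other groups. The highest adjusted p with 1 array left out ran from 0.0954 for *Rrm2* to 0.266 for *Tpx2*. The differences kept their sign, with 0.90 to 1.05 for *Mcm4*, 2.22 to 2.72 for *Rrm2*, 1.39 to 2.66 for *Kif11* and −1.04 to −0.95 for *Cdkn1a*. With only the 4 miR-155-/- arrays giving the spread, 6 were made: *Mcm4*, *Mcm7*, *Rrm2*, *Ccna2* and *Birc5* higher and *Cdkn1a* lower. With the donor as a fixed block, *Rrm1* and *Gins2* missed the threshold (adjusted p = 0.0648 and 0.0649), and *Mcm2* and *Cdk1* passed it (adjusted p = 0.0423 and 0.0362). At an unadjusted p under 0.05 on all 8 arrays, with the donor as a random block, 12 S phase and 11 mitosis genes were higher, beside 8.87% of all probe sets.

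Other probe sets annotated to these genes were read as a further measure. Of 50, 36 had higher values with IL-10 in miR-155-/- cells, 11 were called higher and 1, of *Cdkn1a*, lower. Over all probe sets, 1.26% were called higher and 1.42% lower. Of the 19 with a mean of 6 or more, 13 had higher values and 6 were called higher. Among these 6 is a second *Mcm5* probe set, whose mean of 6.11 meets this limit only through its miR-155-/-(LPS + IL-10) values. Some of the 50 called a gene whose brightest probe set missed the threshold, such as *Mcm5* at 1.06 (adjusted p = 0.0172) and *Mcm2* at 1.11 (adjusted p = 0.0382). Others did not follow the brightest one. A second *Tpx2* probe set, with a mean of 6.06 against 6.72, differed by −0.07 (adjusted p = 0.934), and the mean over the *Tpx2* probe sets by 0.24 (adjusted p = 0.524). For *Ccnd2*, 6 further probe sets had differences of −0.89 to −1.17 and none passed.

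Markers of other cells also differed between the arrays. In miR-155-/- arrays the summed linear level of 6 neutrophil markers was 640 and 769 with LPS and 1279.8 and 1849 with LPS + IL-10. In WT it was 1594 and 1500 with LPS and 2363 and 2744 with LPS + IL-10, so it was higher with IL-10 in both donors of each genotype. The highest of the 6 were *Mmp8*, at 7.33 and 8.34, then 8.70 and 9.96 with IL-10, and *Csf3r*, which macrophages also express and which rose by 1.09 (adjusted p = 0.00886). In WT, *Csf3r* read 8.22 and 7.99 with LPS, then 9.11 and 9.26 with LPS + IL-10. The other 4 had lower values with IL-10 in miR-155-/- cells, so that the median difference there was −0.07. Among these, *Camp* read 6.30 and 5.82, then 5.60 and 5.18, and the granule genes *Ngp* and *Ltf* read 2.24 to 3.32 on every array. *Myb*, a gene of dividing progenitors, read 5.54 and 5.26 in miR-155-/-(LPS) and 3.09 to 3.33 elsewhere. It fell with IL-10 in miR-155-/- cells (−2.14, adjusted p = 0.00205). Over the 9 measured progenitor markers the median difference there was −0.05, with 4 higher and 5 lower, and only *Myb* was called. Stromal markers summed to 212 and 669 in miR-155-/- arrays under LPS and to 149.6 and 537 under LPS + IL-10. The 3′ to 5′ log2 gap of the *Gapdh* control probes in miR-155-/- cells was 0.71 and 0.57 under LPS, then 0.51 and 0.49 with IL-10. That of the actin probes was 0.83 and 1.04, then 0.71 and 0.76, so both gaps were smaller with IL-10 in both donors. In WT they were 0.48 to 0.57 and 0.69 to 0.99. The part of these in the results was not tested.

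Further genes of the same pathways were read from wider lists for IL-10 in miR-155-/- cells, where 1.26% of all probe sets rose. Of 40 other S phase genes, 11 rose and none fell, with a median log2 difference of 0.45, and 7 had negative differences. They included the DNA ligase *Lig1* at 0.93 (adjusted p = 0.0124), *Gins1* at 1.06 (adjusted p = 0.0130), the chromatin assembly subunit *Chaf1b* at 1.40 (adjusted p = 0.0139) and *Uhrf1*, which guides maintenance methylation, at 1.70 (adjusted p = 0.0155). Of 51 other mitosis genes, 5 rose and none fell, with a median of 0.76, and 7 had negative differences. Among these were the condensin subunits *Ncaph* at 1.09 (adjusted p = 0.00696) and *Ncapd2* at 1.15 (adjusted p = 0.0224), and the cytokinesis genes *Ect2* at 1.15 (adjusted p = 0.0216) and *Racgap1* at 0.99 (adjusted p = 0.0347).

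Of 28 other G1 and checkpoint regulators, 3 rose and none fell. They do not all act in one direction: *Cdk4*, the partner of D-type cyclins, rose by 0.76 (adjusted p = 0.0439), while *Cdkn2d*, which inhibits that kinase, rose by 1.45 (adjusted p = 0.00886) and *Wee1*, which holds back mitotic entry, by 1.22 (adjusted p = 0.0484). In miR-155-/-(LPS) against WT(LPS), *Chaf1b* was lower by 1.28 on the log2 scale and the growth arrest gene *Gadd45a* higher by 1.60 (adjusted p = 0.0415 and 0.0461). These were 1 of 40 other S phase and 1 of 28 other G1 and checkpoint genes, with 0 of 51 other mitosis genes. Over all probe sets, 1.46% were called in this comparison in either direction, and the calls in the lists lie near that share. *Chaf1b* had WT values of 5.87 and 6.18 under LPS, and miR-155-/- values of 4.58 and 4.90 under LPS and 6.26 and 6.01 under LPS + IL-10. No gene of these 3 lists passed in the other comparisons of 2 groups or in the interaction. In the effect averaged over genotypes, *Gins1*, *Lig1*, *Uhrf1*, *Chaf1b*, *Racgap1*, *Ncapd2*, *Ncaph* and *Cdkn2d* passed, all higher, beside 1.16% of all probe sets.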

How the data were processed

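Affymetrix mouse arrays were hybridised with amplified RNA of 8 BMDM cultures. The authors deposited log2 intensities, computed by RMA in affy with background correction and quantile normalization. Versions of their tools are not given in the sources at hand. The tests used limma 3.58.1 (lmFit and eBayes, in R 4.3.3) on all 8 arrays, with the donor as a random block (duplicateCorrelation, 0.24), and adjusted by the Benjamini-Hochberg method over 45014 probe sets. Of the 45101 deposited, 64 controls and 23 sex-linked probe sets were left out. A call is an adjusted p under 0.05, and selection, as in the methods of the study, an unadjusted p under 0.05 with a log2 difference over 1 in size. The number of arrays limits the precision, and an exact permutation of 2 against 2 arrays cannot go below p = 0.333.

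A donor is a genotype with a replicate number, as the labels give them. Deviations from group means of arrays of the same donor correlated at r = 0.754 in WT and 0.230 in miR-155-/-. Gene names came from the array annotation, where 34958 probe sets had 1 symbol, 932 several and 9211 none. *Ccnb1* and some genes of the wider lists had no probe set of their own. No array column was of another series.

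The genes, lists and tests were chosen with earlier results of these data known. All 35 genes are named. Values per array are given for genes called or selected in any comparison, for the 3 genes of each class with the largest range, and for *Mki67*, *Top2a*, *Mcm2*, *Pcna*, *Ccnd1*, *Cdkn1a* and *E2f1*. Of the wider lists, at most 4 called genes per list and comparison are named. Alternatives were other blocks or none, the arrays compared alone, a filter for means of 6 or more, array weights, an intensity trend with robust hyperparameters, centred arrays, a second quantile normalization, averaging all probe sets per gene, the selection rule, each array left out, and WT donor 1 left out. The fit was tested on simulated data. Figures were made in matplotlib 3.10.9 under Python 3.11.15. Motifs were searched by exact match.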

Additional observations from a re-analysis of the deposited data

How the results depend on the processing

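Over the alternatives, 65 of 116 counts of calls were equal to those reported, 23 were higher and 28 lower, and 146 of 148 class medians kept their sign. The exceptions were the mitosis median for IL-10 in WT, −0.03, which was 0.10 without WT(LPS + IL-10) replicate 2 and 0.02 with the mean over probe sets. For IL-10 in miR-155-/- cells, the 13 calls became 7 with the replicate number as a fixed block, 4 with no block, 6 with only the arrays compared and 6 without WT donor 1, which are the same fit for this comparison, with no block and the spread of the 4 miR-155-/- arrays. They were 0 to 9 with 1 array left out, the 0 being without either miR-155-/-(LPS) array or miR-155-/-(LPS + IL-10) replicate 1. The donor as a fixed block gave 14, a mean of at least 6 gave 17, and the trend and array weights 18 each. Of the 17, *Cdc6* and *Top2a* meet that limit only through their miR-155-/-(LPS + IL-10) values. For the averaged effect, the 6 calls became 2 with the replicate number as a block, 1 with no block, 2 without WT donor 1, 2 by selection and 0 to 3 with 1 array left out. The comparison with WT under LPS, with 0 calls, gave 1 with the replicate number as a block (*Rrm2*, lower), 3 with a mean of at least 6, 2 with the trend, 1 without WT donor 1 and 4 by selection. For IL-10 in WT, 0 became 3 with a mean of at least 6 and 1 with the trend (*Ccnd1*). Under LPS + IL-10, 0 became 4 with a mean of at least 6, 4 with the trend, 2 with the mean over probe sets, 1 without WT donor 1 and 8 by selection. The interaction went from 0 to 5, to 4 and, by selection, to 12. The S phase median became −0.21 for miR-155-/- against WT under LPS with a mean of at least 6 and −0.076 for IL-10 in WT without WT donor 1. For IL-10 in miR-155-/- cells it was 0.51 to 0.75 with 1 array left out. The mitosis median there was 0.71 to 1.25 with 1 array left out and 0.49 with the mean over probe sets. For miR-155-/- against WT under LPS + IL-10 it was 0.47 to 1.15 with 1 array left out. Without WT donor 1, each WT group is 1 array, and the 1 gene called against WT, *Ccnd2*, rests on the spread of the miR-155-/- arrays. The causes were not tested. Shares of all probe sets were taken for the reported fit only, not for the alternatives. Array centring and the second quantile normalization moved the median of all probe sets by at most 0.07 and 0.03. The standard error for IL-10 in miR-155-/- cells was largest for *Ccnd2* (1.28) and *Ccna2* (0.42).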
